A study of Mus musculus with 8 samples.

Results

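The genes described here are 41 interferon-stimulated genes of the mouse heart, found by symbol among the 33249 genes of the deposited gene table. They comprised 29 genes of the kind that type I interferon induces, called type I style below, and 12 interferon-induced GTPases. The list was drawn up with an earlier comparison of these libraries in view, in which genes of this kind were lower in CKO-MI than in fl/fl-MI, so values of that contrast, and of MI against sham within a single genotype, are given as a description without a test. RNA of mouse myocardium was sequenced in 8 libraries that fell into 4 groups of 2, with the labels fl/fl-Sham and CKO-Sham after sham surgery and fl/fl-MI and CKO-MI after infarction. All mice carried floxed Piezo1 alleles. CKO mice also carried a transgene in which the Myh6 promoter, active in cardiomyocytes, drives a Cre that tamoxifen switches on, and were given tamoxifen at 75 mg/kg/day for 5 days from the age of 4 weeks. The fl/fl mice were littermates without the transgene, whose genotype field reads WT, and the sources used here do not say whether they received tamoxifen. Surgery was at 8 weeks of age, MI is myocardial infarction, and the MI hearts were collected at day 42. Nothing states that the 2 libraries of a group came from separate mice, so p-values measure the spread between these libraries, which may be technical, and which region of the infarcted heart was sampled is not stated.

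Interferons are secreted proteins that alert cells to viruses and other threats. Type I interferons signal through the receptor chains Ifnar1 and Ifnar2 and the kinases Jak1 and Tyk2 to a complex that holds Stat2 and Irf9, which binds the interferon-stimulated response element (ISRE) in promoters. Interferon gamma signals through Ifngr1 and Ifngr2 to factors that bind the gamma-activated site (GAS), and Irf1 carries this signal further. The genes induced include antiviral effectors, RNA and DNA sensors, and the families of interferon-induced GTPases, the immunity-related GTPases (IRG) and the guanylate-binding proteins (GBP), which act on the membranes that enclose microbes in the cell.

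The deposited counts summed to between 73821747 and 88117573 per library. Values below are CPM, the count of a gene per 1000000 counts of its library, scaled by the trimmed mean of M-values (TMM), which sets libraries to a common level by the bulk of their genes, and levels are compared between genes only as the authors' FPKM, which is per length. The labels were checked before the results. Piezo1, the targeted gene, was at 72.2 and 82.0 CPM (fl/fl-Sham) and at 76.7 and 88.3 CPM (CKO-Sham), and after MI at 53.5 and 64.8 CPM (fl/fl) and at 56.3 and 64.6 CPM (CKO). It was thus not lower in the libraries labelled CKO, although whole myocardium also holds Piezo1 of other cells. Esr1, part of which is fused to the Cre of such transgenes, had 5.52 to 8.36 CPM in all 4 sham libraries and in the library labelled fl/fl-MI 1, against 331 CPM in fl/fl-MI 2, 707 CPM in CKO-MI 1 and 402 CPM in CKO-MI 2. Esr1 therefore went against the label of fl/fl-MI 2 and against those of both CKO-Sham libraries. Group names below are the deposited labels, each direction between genotypes rests on them, and both fl/fl-MI libraries are shown apart throughout. The library labelled fl/fl-MI 2 also stood apart in genes of the atria. Bmp10, Myl4, Sln and Myl7 had 3834, 2810, 310 and 1157 CPM there. These genes had 0.897 to 12.6 CPM in the other MI libraries and 1.04 to 48 CPM in the sham libraries. With Nppa, the sum was 19857 CPM in fl/fl-MI 2, 2547 to 4450 CPM in the other MI libraries and 135 to 594 CPM in sham. In the other MI libraries that sum was nearly all Nppa (2520 to 4419 CPM).

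Levels differed widely among these genes. Over the 8 libraries the mean FPKM ran from 0.334 for Oas3 to 84.6 for Ifitm3, which hinders the entry of viruses from endosomes. Ifi27l2a (30.2 FPKM), a small membrane protein, Bst2 (18.8 FPKM), which tethers budding virus to the cell, Gbp2 (12.6 FPKM) and Ifit3 (12.3 FPKM), which assists the binding of foreign RNA by Ifit1, followed. With a minimum mean FPKM of 0.5, 40 of the 41 genes were tested (28 of 29 type I style genes and 12 of 12 GTPases). Mx1, at 0.795 FPKM, was the lowest member just inside this limit and Oas3 the member just outside it. Members of the same family lay side by side in the genome (coordinates of the deposited tables, which fit GRCm38). Gbp5, Gbp7, Gbp3 and Gbp2 lay within 144 kb of chromosome 3 from 142493978 to 142638008, and Gbp4 and Gbp6 within 178 kb of chromosome 5 from 105115767 to 105293696. Irgm1, Tgtp1 and Tgtp2 lay within 202 kb of chromosome 11 from 48861968 to 49064206, with Igtp and Irgm2 further along it within 23 kb from 58199556 to 58222782. Ifit2, Ifit3, Ifit3b and Ifit1 lay within 99 kb of chromosome 19 from 34550694 to 34650009.

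Promoter sequences are shown because they are the feature through which the genes are known to be grouped as interferon targets. RefSeq promoters (GRCm38.p6, 250 bases before to 50 after each start) were at hand for 29 of the 41 genes. The ISRE was searched as GAAANNGAAA and the GAS as TTCNNNGAA, each on both strands, and matches may overlap each other. An ISRE match lay in the promoters of 22 of the 29 genes (13 of 20 type I style genes and 9 of 9 GTPases), against 3.99% of all 27025 genes with a promoter. A GAS match lay in those of 11 of the 29 genes, among them 6 of the 9 GTPases, against 9.55% of all genes. In the following 60-base windows, all upstream of the start, capitals mark the ISRE and GAS matches, and each sequence reads 5′ to 3′ on the strand of the gene. The 5 IRG genes of chromosome 11 are shown first, Irgm1 (chr11:48871421-48871480, minus strand), Igtp (chr11:58199496-58199555, plus strand), Irgm2 (chr11:58214888-58214947, plus strand), Tgtp1 (chr11:48992289-48992348, minus strand) and Tgtp2 (chr11:49064248-49064307, minus strand).
Igtp: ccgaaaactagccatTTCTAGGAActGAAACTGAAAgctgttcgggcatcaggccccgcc
Irgm2: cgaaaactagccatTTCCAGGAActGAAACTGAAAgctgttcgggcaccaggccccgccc
Tgtp1: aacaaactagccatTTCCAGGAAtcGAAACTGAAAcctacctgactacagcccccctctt
Tgtp2: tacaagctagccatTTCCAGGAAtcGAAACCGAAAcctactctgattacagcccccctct
Irgm1: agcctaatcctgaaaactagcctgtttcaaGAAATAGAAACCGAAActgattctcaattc

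In the windows of Igtp, Irgm2, Tgtp1 and Tgtp2 a GAS match stood before an ISRE match, with a gap of 2 bases, while that of Irgm1 held 2 overlapping ISRE matches and 0 GAS matches. The GBP genes of chromosome 3 are Gbp5 (chr3:142496744-142496803, plus strand), Gbp2 (chr3:142620579-142620638, plus strand), Gbp3 (chr3:142559980-142560039, plus strand) and Gbp7 (chr3:142530258-142530317, plus strand), and their ISRE matches lay on the opposite strand, so they read as TTTC pairs.
Gbp5: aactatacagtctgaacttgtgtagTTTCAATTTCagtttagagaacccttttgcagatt
Gbp2: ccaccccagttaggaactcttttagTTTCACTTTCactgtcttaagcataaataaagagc
Gbp3: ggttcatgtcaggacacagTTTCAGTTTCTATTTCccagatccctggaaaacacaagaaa
Gbp7: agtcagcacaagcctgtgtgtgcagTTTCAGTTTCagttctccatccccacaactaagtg

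Of the type I style genes, Isg15 (chr4:156200850-156200909, minus strand) carried 3 overlapping ISRE matches and Ifit1 (chr19:34640779-34640838, plus strand) carried 2. Bst2 (chr8:71537562-71537621, minus strand) carried 2 overlapping ISRE matches, and only the match further upstream overlapped a GAS match. Ifit3 (chr19:34583382-34583441, plus strand) and its copy Ifit3b (chr19:34607778-34607837, plus strand) had the same 60 bases, so they are printed once.
Isg15: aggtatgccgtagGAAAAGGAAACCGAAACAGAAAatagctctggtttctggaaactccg
Ifit1: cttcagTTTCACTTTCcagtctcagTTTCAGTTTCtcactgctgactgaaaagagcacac
Bst2: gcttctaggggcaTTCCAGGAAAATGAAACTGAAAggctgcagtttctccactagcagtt
Ifit3: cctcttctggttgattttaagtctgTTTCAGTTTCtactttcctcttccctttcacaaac
A match is a string of letters and does not show that a factor binds there.

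The first comparison asked how these genes stood 42 days after infarction. Both genotypes were weighted equally, so that the difference between them, as labelled, does not enter. Esr1 was at 5.52 to 8.36 CPM in all 4 sham libraries and in fl/fl-MI 1. In the other MI libraries it was at 331 to 707 CPM. If Esr1 marks the transgene, genotype is mixed with surgery in this comparison, and the part of genotype was not tested. Relative to the median gene of the heart, most members were lower after MI. On TMM-scaled counts, 27 of the 40 tested members fell (22 of 28 type I style genes and 5 of 12 GTPases) and 0 rose at an adjusted p under 0.05 in edgeR's quasi-likelihood test with Benjamini-Hochberg adjustment over 14028 genes. Over all genes 18.3% were called lower and 22.0% higher. At an unadjusted p under 0.05 in edgeR, 31 members were lower and 0 higher, while 7044 of all 14028 genes passed, 3235 of them lower. DESeq2 called 31 members lower and 0 higher, against 3045 lower and 3441 higher over all genes. The median log2 difference of the members was -0.83 (-0.83 for the type I style genes and -0.82 for the GTPases), against 0.03 for all tested genes. All 4 MI libraries lay below all 4 sham libraries for 22 members, against 19.5% of all tested genes. Leaving out a library leaves 1 in its group, whose spread then no longer counts, so a call gained in such a fit is not counted. The median log2 difference of the members was -1.13 without fl/fl-MI 1 and -0.73 without fl/fl-MI 2, against -0.01 and 0.02 for all genes. Without fl/fl-Sham 2 or CKO-Sham 1 it was -0.79 and -0.82. Fewer members, and fewer of all genes, were called with a sham or CKO-MI library left out.

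The direction against 0 depended on how libraries were scaled, and the share of counts on mitochondrially encoded genes differed between surgeries, at 43.1% to 46.4% (sham) and 19.9% to 24.2% (MI). The median of all genes moved from 0.03 on TMM to 0.41 on log2(FPKM + 1) and to 0.92 on log2(TPM + 1). Calls for the members were then 0 higher and 11 lower on FPKM, with 7027 higher and 837 lower over all genes, and 9 higher and 2 lower on TPM, with 10755 higher and 278 lower over all genes. Set against the median of all genes, 36 of the 40 members lay lower after MI under each of 6 scalings (TMM, RLE, DESeq2, FPKM with either of 2 added constants, and TPM), and Zbp1, Igtp, Irgm2 and Gbp6 did not. Subtracting that median removes the shift between scalings, and TMM, RLE and DESeq2 gave nearly the same values. This agreement is therefore not 6 separate checks. Against 0, 14 members were lower under all 6 scalings, namely Irf7, Irf1, Ifi44, Rsad2, Oas2, Mx2, Rtp4, Xaf1, Tgtp1, Tgtp2, Gbp3, Gbp4, Gbp5 and Gbp7. Changes below are on TMM-scaled counts, and the sign turned on TPM for 22 members and on FPKM for 8 of these, given beside each gene.

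**Figure D1:**
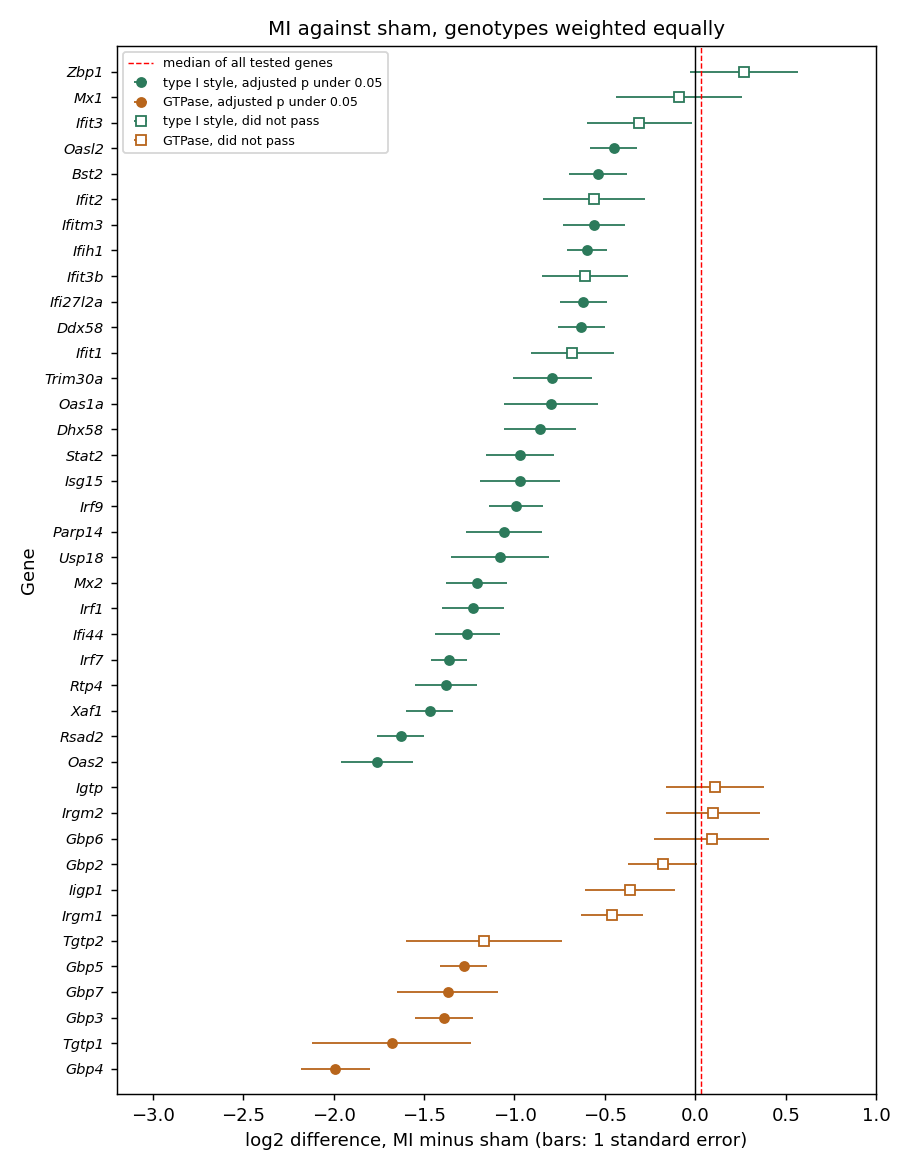
Log2 difference of MI minus sham hearts on TMM-scaled counts (horizontal axis) for the 40 tested genes (vertical axis), with bars of 1 standard error, filled circles for genes at an adjusted p under 0.05 and open squares for the others. The 27 called genes all lie below 0, from Oasl2 at -0.45 to Gbp4 at -1.99, and against TPM the sign turns for 22 genes that lie below 0 here.

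The 4 regulators fell together on TMM-scaled counts. Irf7, the factor that amplifies interferon production, had 61.7 and 71.8 CPM in fl/fl-Sham, 51.6 and 47.1 in CKO-Sham, 32.6 and 32.0 in fl/fl-MI, and 16.8 and 14.3 in CKO-MI. All MI libraries were below all sham libraries, and the groups stood in 4 separate steps. Irf7 was 2.56-fold lower after MI (log2 difference -1.36, standard error 0.1, adjusted p = 0.000532 in edgeR). Irf1, which carries the interferon gamma signal, had 48.7 and 43.9 CPM in fl/fl-Sham, 48.7 and 42 in CKO-Sham, 24.3 and 16.1 in fl/fl-MI, and 15.9 and 21.7 in CKO-MI. The genotypes overlapped within each surgery, and Irf1 was 2.35-fold lower after MI (log2 difference -1.23, standard error 0.17, adjusted p = 0.00226 in edgeR).

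Irf9 and Stat2 belong to the complex that carries the type I signal to the ISRE. Irf9 had 40.2 and 38.5 CPM in fl/fl-Sham, 41.5 and 41.1 in CKO-Sham, 26.6 and 17.6 in fl/fl-MI, and 16.7 and 20.5 in CKO-MI. Stat2 had 55.3 and 58.7 CPM in fl/fl-Sham, 44.7 and 52.0 in CKO-Sham, 38.6 and 22.3 in fl/fl-MI, and 20.8 and 26.1 in CKO-MI. For both genes the library labelled fl/fl-MI 1 was the highest of the MI libraries and that labelled fl/fl-MI 2 lay within the range of CKO-MI. On the log2 scale Irf9 fell by 0.99 (standard error 0.15, adjusted p = 0.00307 by edgeR) and Stat2 fell by 0.97 (standard error 0.19, adjusted p = 0.00703), while TPM gave 0.12 and 0.13. The span of Irf7 overlaps that of Phrf1 on the opposite strand and the span of Irf9 overlaps that of Rnf31 on the same strand, and whether strand was used in counting is not given in the sources used here.

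**Figure D2:**
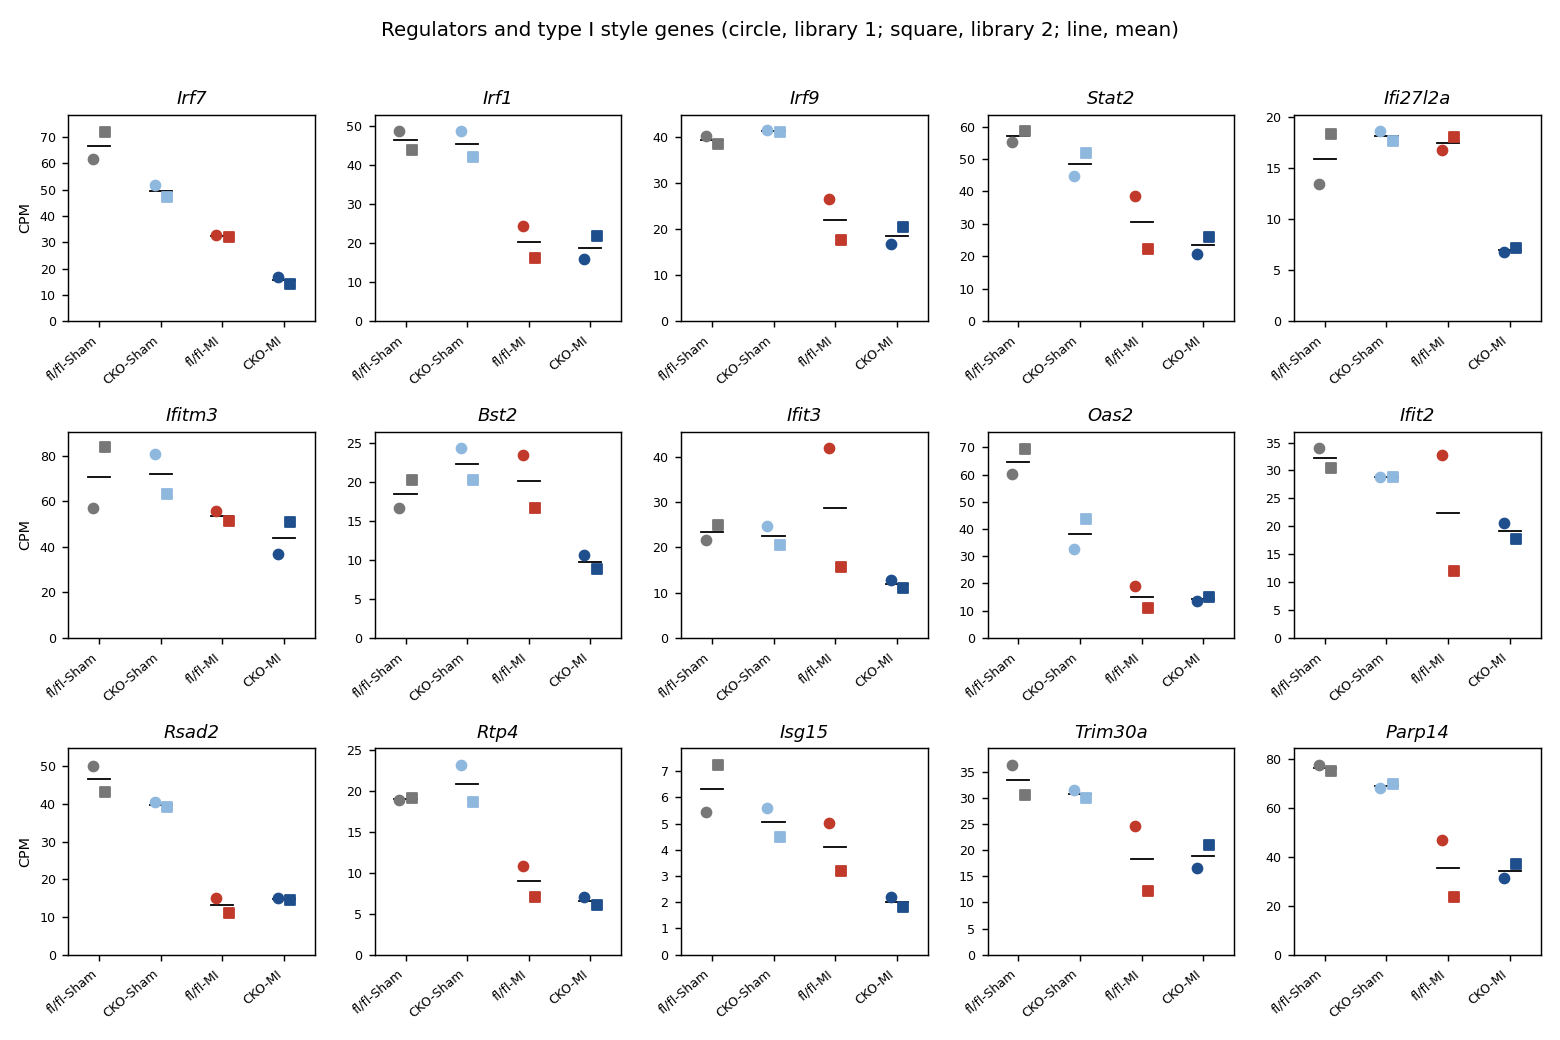
TMM-scaled CPM (vertical axes, from 0) of 15 regulators and type I style genes in the 4 groups (horizontal axes), with circles for library 1, squares for library 2 and lines for their mean. Irf7 steps down over the groups to 16.8 and 14.3 CPM in CKO-MI, and Ifi27l2a is low in CKO-MI alone, at 6.82 and 7.19 CPM.

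Among the effectors, all MI libraries were low in both genotypes for Rsad2, Oas2, Parp14, Trim30a and Rtp4. Rsad2, which makes a chain-terminating nucleotide against viral polymerases, had 50.2 and 43.1 CPM in fl/fl-Sham, 40.5 and 39.1 in CKO-Sham, 15.1 and 11.1 in fl/fl-MI, and 15.1 and 14.6 in CKO-MI. Oas2, which senses double-stranded RNA and activates RNase L, had 60.3 and 69.3 CPM in fl/fl-Sham, 32.5 and 43.7 in CKO-Sham, 19.0 and 11.1 in fl/fl-MI, and 13.7 and 15.1 in CKO-MI. The MI libraries of the genotypes overlapped for both genes. Rsad2 was 3.09-fold lower after MI (log2 difference -1.63, standard error 0.13, adjusted p = 0.000539 by edgeR) and Oas2 3.38-fold lower (-1.76, standard error 0.2, adjusted p = 0.00115). Parp14, an ADP-ribosyltransferase, had 77.5 and 74.8 CPM in fl/fl-Sham, 68.1 and 69.5 in CKO-Sham, 46.9 and 23.7 in fl/fl-MI, and 31.3 and 36.9 in CKO-MI. Trim30a, a ubiquitin ligase, had 36.4 and 30.6 CPM in fl/fl-Sham, 31.5 and 30.0 in CKO-Sham, 24.6 and 12.1 in fl/fl-MI, and 16.6 and 21 in CKO-MI. In both genes fl/fl-MI 1 was the highest and fl/fl-MI 2 the lowest of the MI libraries. Parp14 fell by 1.06 (standard error 0.21, adjusted p = 0.00777 by edgeR) and Trim30a fell by 0.79 (standard error 0.22, adjusted p = 0.0285) on the log2 scale, with 0.04 and 0.28 on TPM. Trim30a lost its call without any single sham or CKO-MI library (adjusted p of 0.0513 to 0.0938 by edgeR).

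Rtp4, a chaperone of receptors that also restrains viral replication, had 18.8 and 19.1 CPM in fl/fl-Sham, 23.1 and 18.6 in CKO-Sham, 10.8 and 7.06 in fl/fl-MI, and 6.99 and 6.06 in CKO-MI, and fell by 1.38 on the log2 scale (standard error 0.17, adjusted p = 0.00163 in edgeR). Its span overlaps that of Masp1 on the opposite strand. Ifitm3 had 57.2 and 83.9 CPM in fl/fl-Sham, 80.8 and 63.3 in CKO-Sham, 55.6 and 51.2 in fl/fl-MI, and 36.8 and 51.0 in CKO-MI. Its MI libraries were all below its sham libraries by a small margin, and it fell by 0.56 (standard error 0.17, adjusted p = 0.0392 in edgeR), with 0.01 on FPKM and 0.58 on TPM. Its call was lost without fl/fl-Sham 2, CKO-Sham 1, CKO-Sham 2 or CKO-MI 1 (adjusted p of 0.0583 to 0.135 by edgeR). Isg15, a ubiquitin-like protein, had 5.44 and 7.23 CPM in fl/fl-Sham, 5.6 and 4.51 in CKO-Sham, 5.02 and 3.2 in fl/fl-MI, and 2.21 and 1.83 in CKO-MI. The library labelled fl/fl-MI 1 lay within the sham range, and Isg15 fell by 0.97 (standard error 0.22, adjusted p = 0.014 in edgeR), with 0.15 on TPM, a call lost without fl/fl-Sham 2 (adjusted p = 0.063) or CKO-Sham 1 (adjusted p = 0.0598).

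For Ifi27l2a and Bst2, both libraries labelled fl/fl-MI stayed at the sham level and those labelled CKO-MI were below every sham library. Ifi27l2a had 13.5 and 18.4 CPM in fl/fl-Sham, 18.7 and 17.7 in CKO-Sham, 16.8 and 18.1 in fl/fl-MI, and 6.82 and 7.19 in CKO-MI. Bst2 had 16.6 and 20.2 CPM in fl/fl-Sham, 24.4 and 20.3 in CKO-Sham, 23.5 and 16.6 in fl/fl-MI, and 10.6 and 8.8 in CKO-MI. With both genotypes weighted equally Ifi27l2a fell by 0.62 on the log2 scale (standard error 0.13, adjusted p = 0.0108 by edgeR) and Bst2 fell by 0.54 (standard error 0.16, adjusted p = 0.0343), with 0.51 and 0.58 on TPM and with 0.02 for Bst2 on FPKM. Bst2 lost its call without any single sham library or CKO-MI 2 (adjusted p of 0.0613 to 0.124 by edgeR). Counting every gene with both fl/fl-MI libraries at or above the lowest sham library and both CKO-MI libraries below every sham library gave 6 members, against 1.93% of all tested genes, and this order is part of what the members were chosen on. The other 4 were Oasl2, with both fl/fl-MI libraries in the sham range, and Igtp, Iigp1 and Irgm2, in which fl/fl-MI 1 was above every sham library.

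The IFIT genes, whose proteins bind viral RNA, were not called. Ifit3 had 21.7 and 25 CPM in fl/fl-Sham, 24.6 and 20.5 in CKO-Sham, 41.8 and 15.6 in fl/fl-MI, and 12.8 and 11 in CKO-MI. Ifit2 had 34.1 and 30.4 CPM in fl/fl-Sham, 28.8 and 28.8 in CKO-Sham, 32.7 and 12 in fl/fl-MI, and 20.6 and 17.7 in CKO-MI. In both genes the library labelled fl/fl-MI 1 was within or above the sham range and the other 3 MI libraries were below every sham library. The log2 differences after MI were -0.31 for Ifit3 (standard error 0.29, adjusted p = 0.416 by edgeR) and -0.56 for Ifit2 (standard error 0.28, adjusted p = 0.155), with 0.71 and 0.45 on TPM and 0.17 for Ifit3 on FPKM. Without the library labelled fl/fl-MI 1 they were -0.77 and -1.03. When fl/fl-MI 2 was left out instead, Ifit2 was at -0.29. Ifit1 (-0.68, with 0.39 on TPM) and Ifit3b (-0.61, with 0.43 on TPM) also missed the threshold, and 18.5% of the 150-base windows of Ifit3 transcripts are shared with Ifit3b, so their reads may have been split.

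The remaining 13 tested type I style genes are given by their range. Of these Ifi44, Usp18, Xaf1, Oas1a, Oasl2, Mx2, Ddx58, Ifih1 and Dhx58 fell, with log2 differences from -1.47 (Xaf1, which promotes apoptosis) to -0.45 (Oasl2), and on TPM the sign turned for Usp18, Oas1a, Oasl2, Ddx58, Ifih1 and Dhx58 and on FPKM for Oasl2. Ifit1, Ifit3b, Mx1 (-0.09, with 0.2 on FPKM and 0.57 on TPM) and Zbp1 (0.27), a sensor of left-handed nucleic acid, did not pass. Ddx58 (-0.63), Ifih1 (-0.6) and Dhx58 (-0.86) are the RIG-I-like sensors of viral RNA. Oas3 was below the limit of expression, with 1.16 to 4.01 CPM. Of the transcript windows of Oas1a, 32.4% are shared with Oas1g, so its value is uncertain.

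**Figure D3:**
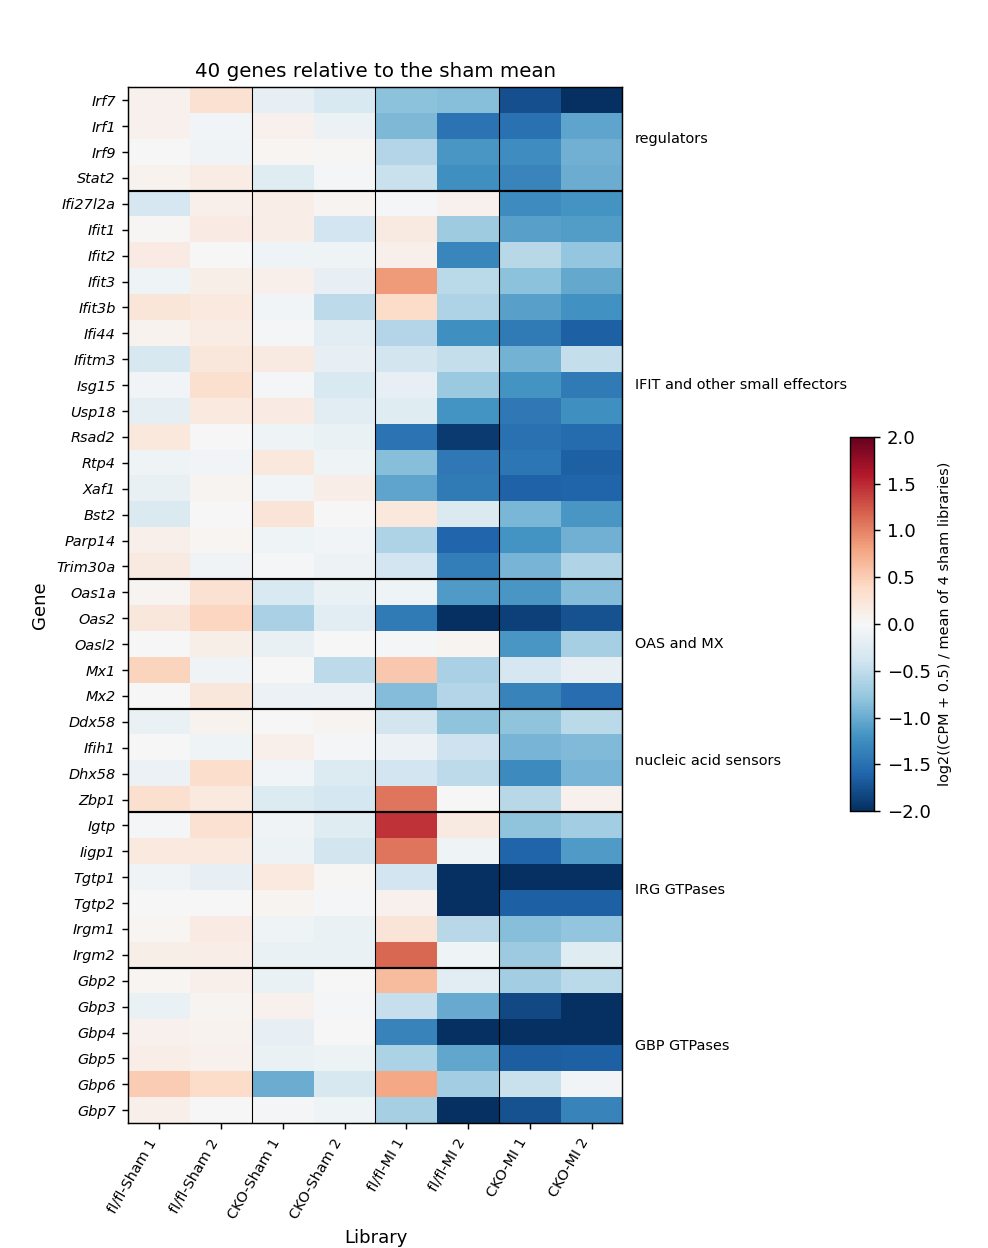
Log2 ratio of each library to the mean of the 4 sham libraries (color, cut at -2 and 2, with 0.5 CPM added) for the 40 tested genes (rows, grouped by role) in the 8 libraries (columns). The median of the GTPases was 0.16 in fl/fl-MI 1, -0.85 in fl/fl-MI 2, and -1.62 and -1.23 in the CKO-MI libraries, while that of the type I style genes was -0.36, -0.83, -1.2 and -1.04.

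The GTPases differed by gene. Of the GBP genes 4 of 6 fell, and of the IRG genes 1 of 6, a difference between families that was not tested. DESeq2 called 3 of the 6 IRG genes lower. Without fl/fl-MI 1 the log2 differences of Igtp, Irgm2, Irgm1, Iigp1 and Tgtp2 were -0.3, -0.29, -0.71, -0.73 and -1.98. Gbp4 had 64.7 and 64.0 CPM in fl/fl-Sham, 54.1 and 61.1 in CKO-Sham, 23.8 and 13.4 in fl/fl-MI, and 11.6 and 13.4 in CKO-MI. Gbp5, which promotes inflammasome assembly, had 22.9 and 21.9 CPM in fl/fl-Sham, 18.9 and 19.3 in CKO-Sham, 13.2 and 9.81 in fl/fl-MI, and 6.3 and 6.38 in CKO-MI. Gbp3 had 35.1 and 40.1 CPM in fl/fl-Sham, 40.9 and 37.9 in CKO-Sham, 27.8 and 18.9 in fl/fl-MI, and 10.6 and 7.8 in CKO-MI. All MI libraries of these genes were below all sham libraries, and for Gbp3 and Gbp5 the CKO-MI libraries were the lowest. Gbp4 was 3.98-fold lower after MI (log2 difference -1.99, standard error 0.19, adjusted p = 0.000746 in edgeR), Gbp5 2.43-fold lower (-1.28, standard error 0.13, adjusted p = 0.000941) and Gbp3 2.62-fold lower (-1.39, standard error 0.16, adjusted p = 0.00135). Gbp7 had 53.4 and 49.5 CPM in fl/fl-Sham, 49.1 and 47.0 in CKO-Sham, 31.3 and 12 in fl/fl-MI, and 14.6 and 19.4 in CKO-MI, and was 2.59-fold lower (log2 difference -1.37, standard error 0.28, adjusted p = 0.00939 in edgeR). Its library labelled fl/fl-MI 2 was the lowest of all.

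Gbp2 and Gbp6 did not pass. Gbp2 had 34.2 and 35.6 CPM in fl/fl-Sham, 30.1 and 32.9 in CKO-Sham, 51.8 and 28.2 in fl/fl-MI, and 20.4 and 22.7 in CKO-MI, with a log2 difference of -0.18 after MI (standard error 0.19, adjusted p = 0.479 in edgeR), 0.33 on FPKM and 0.89 on TPM. Without the library labelled fl/fl-MI 1 the difference of Gbp2 was -0.45, and leaving out fl/fl-MI 2 gave 0.01. Gbp6 had 64.6 and 58.9 CPM in fl/fl-Sham, 22.8 and 36.4 in CKO-Sham, 79.0 and 28.0 in fl/fl-MI, and 33.6 and 43.9 in CKO-MI, with a log2 difference of 0.09 (standard error 0.32, adjusted p = 0.838 in edgeR), and it was -0.39 without fl/fl-MI 1. For Gbp6, both fl/fl-Sham libraries and fl/fl-MI 1 lay at 58.9 CPM or above and the other 5 at 43.9 CPM or below. Of its transcript windows 59.1% are shared with other genes, mostly with Gm43302, so the share of reads that belongs to Gbp6 is uncertain.

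**Figure D4:**
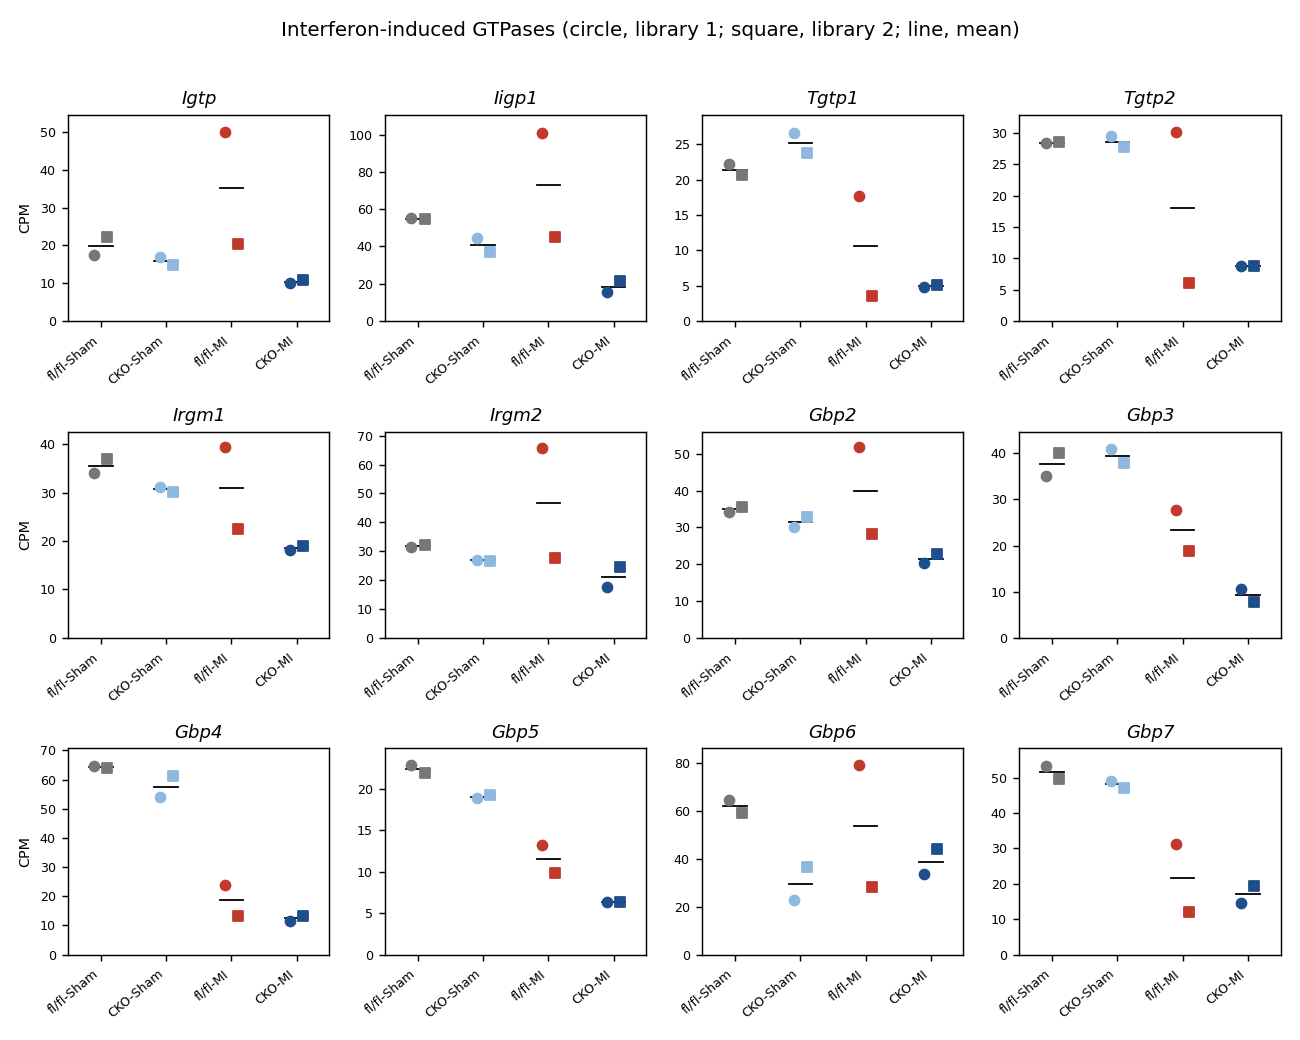
TMM-scaled CPM (vertical axes, from 0) of the 12 GTPases in the 4 groups (horizontal axes), with circles for library 1, squares for library 2 and lines for their mean. In all 12 panels the library labelled fl/fl-MI 1 is above that labelled fl/fl-MI 2, with 101 against 45.1 CPM for Iigp1 and 17.7 against 3.57 CPM for Tgtp1.

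Of the IRG genes, Igtp, Irgm2 and Irgm1 belong to the regulatory branch, which guards the membranes of the cell, and Iigp1, Tgtp1 and Tgtp2 to the effector branch. Igtp had 17.5 and 22.1 CPM in fl/fl-Sham, 17.0 and 14.9 in CKO-Sham, 49.9 and 20.4 in fl/fl-MI, and 10 and 10.9 in CKO-MI. Irgm2 had 31.6 and 32.2 CPM in fl/fl-Sham, 26.9 and 26.7 in CKO-Sham, 65.6 and 27.8 in fl/fl-MI, and 17.6 and 24.7 in CKO-MI. Iigp1 had 55.0 and 54.8 CPM in fl/fl-Sham, 44.7 and 36.9 in CKO-Sham, 101 and 45.1 in fl/fl-MI, and 15.4 and 21.6 in CKO-MI. In these 3 genes the library labelled fl/fl-MI 1 stood above every other library, that labelled fl/fl-MI 2 was within the sham range, and CKO-MI was below it. The log2 differences after MI were 0.11 (Igtp, standard error 0.27, adjusted p = 0.765 in edgeR), 0.1 (Irgm2, standard error 0.26, adjusted p = 0.771) and -0.36 (Iigp1, standard error 0.25, adjusted p = 0.291), with 1.12, 1.09 and 0.68 on TPM and 0.16 for Iigp1 on FPKM. Without the library labelled fl/fl-MI 1 they were -0.3, -0.29 and -0.73, and without fl/fl-MI 2 Igtp was at 0.36. The spans of Igtp and Irgm2 overlap in the deposited table, but all 20621 transcript counts of Irgm2 belonged to transcripts that start past the end of Igtp.

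Irgm1 had 34.0 and 37.0 CPM in fl/fl-Sham, 31.2 and 30.2 in CKO-Sham, 39.5 and 22.4 in fl/fl-MI, and 18.2 and 18.9 in CKO-MI, with a log2 difference of -0.46 after MI (standard error 0.17, adjusted p = 0.0724 in edgeR), 0.07 on FPKM and 0.58 on TPM. Without the library labelled fl/fl-MI 1 it was -0.71 and without fl/fl-MI 2 it was -0.29. Tgtp1 had 22.2 and 20.6 CPM in fl/fl-Sham, 26.6 and 23.8 in CKO-Sham, 17.7 and 3.57 in fl/fl-MI, and 4.8 and 5.12 in CKO-MI. Tgtp2 had 28.3 and 28.5 CPM in fl/fl-Sham, 29.5 and 27.7 in CKO-Sham, 30.1 and 6.08 in fl/fl-MI, and 8.79 and 8.84 in CKO-MI. In this near-identical pair the library labelled fl/fl-MI 1 was at or near the sham level and the other 3 MI libraries were several times lower, with fl/fl-MI 2 the lowest. Tgtp1 was 3.19-fold lower after MI (log2 difference -1.68, standard error 0.44, adjusted p = 0.0216 in edgeR), a call that was lost when a sham library or a library labelled CKO-MI was left out, whichever of the 6 it was (adjusted p of 0.0553 to 0.0681). Tgtp2 missed the threshold (-1.17, standard error 0.43, adjusted p = 0.0647 by edgeR), with differences of -1.98 without fl/fl-MI 1 and -0.81 without fl/fl-MI 2. They share 62.5% and 68.4% of their transcript windows with each other, so reads could have been split between them.

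Markers of other cell types moved with infarction. Their calls stand beside those of all 14028 tested genes, of which 3091 were called higher and 2572 lower on TMM-scaled counts. For all genes the calls were 3441 higher and 3045 lower in DESeq2, 7027 and 837 on FPKM, and 10755 and 278 on TPM. Larger counts of higher markers on FPKM and TPM therefore go with more higher calls over all genes. Of the 7 endothelial markers 7 fell after MI on TMM-scaled counts (5 on FPKM and 4 on TPM, with 0 higher), with summed levels of 2319 to 3002 CPM in sham and 759 to 1061 CPM in MI libraries, and the defining genes Pecam1 and Cdh5 were detected throughout. Of the 7 fibroblast markers 7 rose under each of these scalings, with 1406 to 1551 CPM in sham and 2218 to 6406 CPM in MI libraries. The 8 macrophage markers (4 rose and 0 fell, with 6 higher on FPKM, 8 on TPM and 2 without CKO-MI 2) summed to between 412 and 454 CPM (sham), to 1056 and 805 CPM (fl/fl-MI) and to 421 and 669 CPM (CKO-MI). The 5 markers of leukocytes (1 rose, with 3 in DESeq2 and on FPKM and 5 on TPM) summed to between 85.3 and 92.2 CPM (sham), 184 and 102 CPM (fl/fl-MI) and 99.1 and 126 CPM (CKO-MI). The library labelled fl/fl-MI 1, above fl/fl-MI 2 in 37 of the 40 members, also had the highest sums of macrophage, leukocyte and fibroblast markers and the lowest sums of endothelial and cardiomyocyte markers. Cardiomyocyte markers summed to 20159 CPM there and to between 25325 and 45650 CPM in the other 7 libraries, with 3 of 8 higher and 2 lower after MI (5 and 0 on TPM). Single markers differed from these sums. Cd14 and Csf1r were highest in fl/fl-MI 2 (86.2 and 103 CPM), and Col1a1 and Pdgfra in CKO-MI 2 (754 and 117 CPM). Myl2 was lowest in fl/fl-MI 2 (801 CPM), and Actc1 in fl/fl-MI 1 (5095 CPM) was above every sham library. Sums were low for T and NK cells (6.31 to 16.3 CPM, 0 of 3 tested markers called), B cells (14 to 67.1 CPM, 1 of 2 higher) and neutrophils (5.92 to 14.3 CPM, 0 of 4 called). The 4 tested markers of plasmacytoid dendritic cells fell on TMM-scaled counts (1 on FPKM and 0 on TPM, where Tcf4 turned to 0.35), with sums of 364 to 541 CPM in sham and 194 to 243 CPM in MI libraries, carried by Tcf4 and Cox6a2, which other heart cells express, while the defining gene Siglech was at 0 to 0.763 CPM. Of the 5 atrial markers only Nppa rose. The median log2 difference of the 5 was 2.97 with all libraries and -0.75 without fl/fl-MI 2. In whole tissue, fewer cells of a type and less RNA per cell cannot be told apart, and the part of these cell types in the results was not tested.

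Between the sham groups, 0 of the 40 members were called in edgeR, against 0.00713% of all tested genes, which is 1 gene. At an unadjusted p under 0.05, edgeR gave 2 members, Irf7 (log2 difference of CKO-Sham minus fl/fl-Sham -0.43, adjusted p = 1 by edgeR) and Oas2 (-0.77, adjusted p = 1). Over all 14028 tested genes, 546 had an unadjusted p under 0.05 in this edgeR comparison. DESeq2, limma on FPKM or TPM, and a fit of only the 4 sham libraries, which called 165 genes in all, also called 0 members. Both CKO-Sham libraries lay below both fl/fl-Sham libraries for 21 of the 40 members, against 23.8% of all tested genes, and above them for 3, against 23.2%. The median difference was -0.16 for the type I style genes and -0.18 for the GTPases, against 0 for all genes. Gbp6 had the lowest value at -1.06. Both libraries labelled CKO-Sham lacked the Esr1 signal, so this comparison rests on labels that this gene goes against.

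After MI, the members were lower in the libraries labelled CKO-MI than in those labelled fl/fl-MI, as they were chosen to be. The log2 difference was below 0 for 26 of 28 type I style genes and 12 of 12 GTPases, with medians of -0.6 and -0.97, against -0.01 for all tested genes. Among the type I style genes the differences ran from -1.32 (Ifi27l2a) to 0.18 (Rsad2), and among the GTPases from -1.98 (Iigp1) to -0.35 (Gbp7). The IRG genes had a median of -1.12 and the GBP genes one of -0.71. Both CKO-MI libraries lay below both fl/fl-MI libraries for 23 members (16 type I style genes and 7 GTPases), against 15.5% of all tested genes. For the other 17, fl/fl-MI 2 lay at or below the higher CKO-MI library, as it did for 60.5% of all tested genes.

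The size of this difference depended on which library labelled fl/fl-MI was used. Ratios between the libraries of a group were taken with 0.5 CPM added to each value, which makes them smaller than ratios of the plain CPM. The library labelled fl/fl-MI 1 was higher than that labelled fl/fl-MI 2 in 37 of 40 members, against 51.1% of all tested genes. Its median log2 difference from fl/fl-MI 2 was 0.58 for the type I style genes and 1.19 for the GTPases. By these ratios the library labelled fl/fl-MI 1 was over 2-fold higher in 12 members, against 6.61% of all tested genes. It was the highest of all 8 libraries for 12 members, among them 5 of the 6 IRG genes, against 14.3% of all tested genes. Over 2-fold differences were rare in the other groups, with 0 members and 3.29% of all tested genes between the CKO-MI libraries, and 0 members and 2.2% of all genes between the libraries of a sham group. Without fl/fl-MI 1 the median of CKO-MI minus fl/fl-MI was -0.2 for the type I style genes and -0.31 for the GTPases, and without fl/fl-MI 2 it was -0.81 and -1.43. Irf7, Ifi27l2a, Oasl2 and Mx2 were genes in which fl/fl-MI 2 stood nearly as high as fl/fl-MI 1 or higher, at 2.06, 2.58, 1.97 and 1.99 times the CKO-MI mean. In contrast Tgtp1, Tgtp2, Gbp6, Gbp7, Mx1, Parp14 and Trim30a had fl/fl-MI 2 at 0.641 to 0.722 times the CKO-MI mean, and Ifit2 had it at 0.627 times. The library labelled fl/fl-MI 2 had the Esr1 signal of the CKO-MI libraries and the atrial genes described above, and the part of either in these values was not tested.

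**Figure D5:**
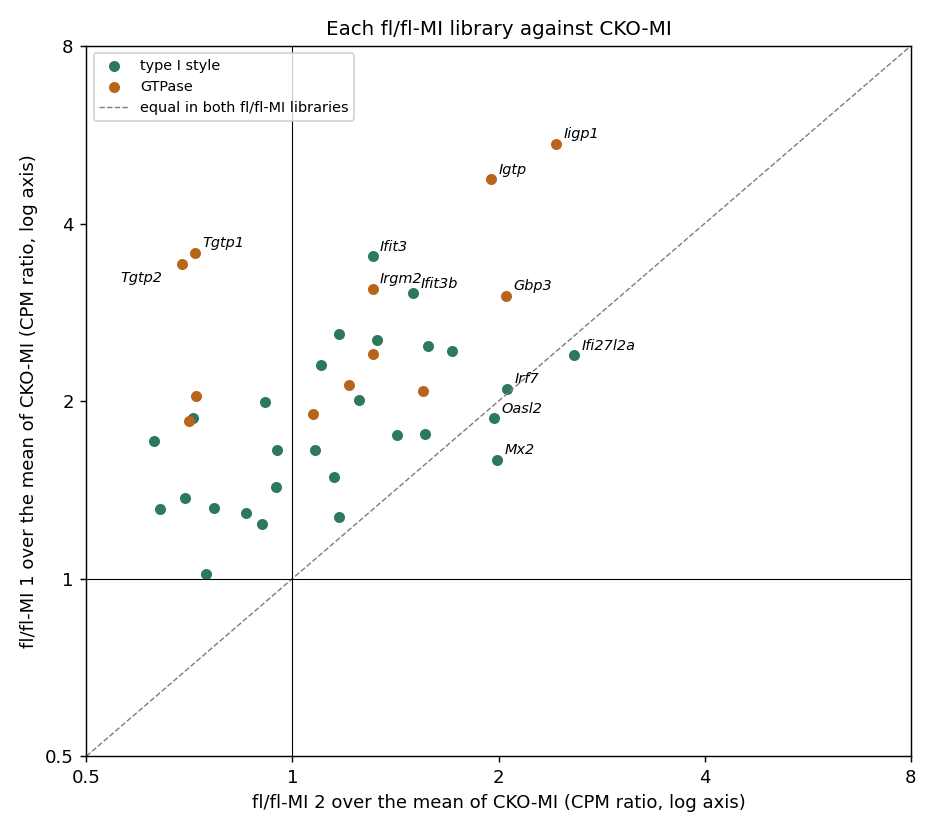
Ratio of each fl/fl-MI library to the mean of the CKO-MI libraries for the 40 tested genes, with fl/fl-MI 2 on the horizontal and fl/fl-MI 1 on the vertical axis (both log axes of CPM ratios) and a dashed line where both are equal. Iigp1 lies at 5.46 by fl/fl-MI 1 and 2.43 by fl/fl-MI 2, while Tgtp1 lies at 3.57 and 0.72 and Ifi27l2a at 2.39 and 2.58.

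Within each genotype, the changes after MI are given side by side, since they share their MI libraries with the contrast above. In fl/fl, the median log2 difference of MI minus sham was -0.68 for the type I style genes and -0.43 for the GTPases, with 24 of 28 and 8 of 12 below 0. In CKO, the medians were -1.06 and -1.32, with 27 of 28 and 11 of 12 below 0. The medians of all genes were 0.05 and 0.01. Irf7 was at -1.05 in fl/fl and -1.67 in CKO, Oas2 at -2.11 and -1.41, and Ifi27l2a at 0.13 and -1.38. Igtp was at 0.83 in fl/fl and -0.61 in CKO, and Iigp1 at 0.42 and -1.14. Both CKO-MI libraries lay below every sham library for 37 of 40 members, against 29.0% of all tested genes, and fl/fl-MI 2 for 32, against 36.5%. The library labelled fl/fl-MI 1 lay above every sham library for 12 members, against 40.2% of all tested genes.

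The rest of the pathway was read from lists of other genes. The calls of each list below stand beside those of all 14028 tested genes. These were 3091 higher and 2572 lower in edgeR, 7027 and 837 on FPKM, and 10755 and 278 on TPM. Interferon genes themselves were at the limit of detection. Of 21 ligand genes 4 were in the table and 0 could be tested, and Ifng, the gene of interferon gamma, had at most 0.29 CPM and was at 0 in both libraries labelled fl/fl-MI. Of 11 receptor and JAK-STAT genes 4 rose and 0 fell after MI in edgeR (7 and 0 on FPKM, 11 and 0 on TPM), among them Stat3 (log2 difference 1.11, standard error 0.12, adjusted p = 0.0011), Ifngr2 (0.96, standard error 0.11, adjusted p = 0.00115) and Jak1 (0.49, standard error 0.11, adjusted p = 0.0109).

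Of 19 genes of sensing and induction, 4 rose (among them Tlr8, Mavs and Irf5) and 5 fell (among them Adar, Irf3 and Mndal) after MI in edgeR, with 7 and 1 on FPKM and 12 and 0 on TPM, where Adar and Irf3 turned in sign. Of 13 brakes on the signal, 4 rose (among them Ptpn1, Ptpn2 and Pias1) and Trim24 fell, with 11 and 0 on TPM, where Trim24 turned in sign. Of 59 further interferon-stimulated genes, 1 rose (Tor1aip1, log2 difference 0.68) and 29 fell, with a median of -0.61, while FPKM gave 8 and 11 and TPM 23 and 1. Set against the median of all genes, which removes the shift between scalings, 46 of the 59 lay lower on TMM and 47 on FPKM and on TPM. The lowest p of these belonged to Ddx60 (-1.64, standard error 0.11, adjusted p = 0.000454 in edgeR), Uba7, the activating enzyme of Isg15 (-1.24, standard error 0.1, adjusted p = 0.000532), and Slfn5 (-0.96, standard error 0.09, adjusted p = 0.000739, with 0.17 on TPM). Slfn5 had 166 to 187 CPM in the sham libraries and 88.5 to 91.2 CPM in all 4 MI libraries, so here the library labelled fl/fl-MI 1 did not stand apart. Of 13 further genes listed with the IRG and GBP families, 3 rose (Irgq, F830016B08Rik and Gm12250) and 4 fell, with 3 and 1 on FPKM and 4 and 1 on TPM. Among those that fell, Gm4070 and Gvin1 had nearly the same CPM in each library (30.9 to 130 and 30.2 to 128 CPM). They may not be separate signals, and whether they share reads was not tested. Gm12250 lost its call without fl/fl-MI 1, CKO-MI 1 or CKO-MI 2, and F830016B08Rik without CKO-MI 1. For genes of these lists and for the markers, fits without a sham library were not examined. Gbp9 (-1.79, standard error 0.11, adjusted p = 0.000347 in edgeR) was called lower under all 6 scalings.

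Of 13 interferon gamma targets, mostly of antigen processing, Cxcl10 (1.17) and Cd74 (1.38) rose and 5 fell, among them Nos2 (-1.86), Tap2 (-0.62, with 0.49 on TPM) and Psmb9 (-0.96, with 0.14 on TPM), a subunit of the immunoproteasome, and the counts were 4 and 1 on FPKM and 8 and 1 on TPM. Cd74, the chaperone of MHC class II, had 52 to 91.2 CPM in the sham libraries, 475 and 155 CPM after MI in fl/fl hearts and 107 and 109 CPM in those labelled CKO, and its call was lost without either CKO-MI library. Cxcl10, a chemokine, had 4.83 and 5.03 CPM in the fl/fl-MI libraries and 0.836 to 1.25 CPM in the other 6. Between the sham groups, 0 of the 128 tested genes of the 7 lists were called by edgeR or DESeq2. At an unadjusted p under 0.05 in edgeR there were 4, against 546 of all 14028 tested genes. Between the MI groups the lists are described without a test, as the members are. Both CKO-MI libraries lay below both fl/fl-MI libraries for 10 of the 13 interferon gamma targets and for 13 of the 59 further interferon-stimulated genes. The same held for 5 of the 13 further genes listed with the IRG and GBP families and 4 of the 19 genes of sensing and induction. It held for 3 of the 13 brakes and 2 of the 11 receptor and JAK-STAT genes. Over all tested genes the share was the 15.5% given above.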

How the data were processed

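Poly(A) RNA of mouse myocardium was sequenced by the authors as paired 150-base reads, trimmed with cutadapt 1.9 and checked with FastQC. The aligner, counter, annotation and strand setting are not given in the sources used here. Per the file headers, the authors deposited a whole-number count per gene and per transcript, without normalization, and an FPKM, which is scaled to length and library size. If each read pair gave 4 counts, which the excess of multiples of 4 among low counts points to, libraries held between 18455437 and 22029393 pairs, and the lowest count of a tested member in any library was 124. Of the 33249 identifiers 33153 were found in GENCODE M21 (GRCm38), all 41 members among them. Samples were grouped by their deposited labels.

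Counts were tested with edgeR 4.0.16 in R 4.3.3 (glmQLFit and glmQLFTest, TMM, a minimum mean FPKM of 0.5, 1 mean per group, all 8 libraries), with Benjamini-Hochberg adjustment over all 14028 genes and calls at an adjusted p under 0.05. Standard errors were taken from the log2 difference and the F statistic. The scripts were tested on simulated data. Alternatives were RLE, DESeq2 1.42.0, limma 3.58.1 on log2(FPKM + 1), log2(FPKM + 0.1) and log2(TPM + 1), other filters, counts divided by 4, a replicate block, each library left out, and only the sham libraries. For a pair of libraries against a pair, 0.33 is the smallest two-sided p of an exact permutation test. Genes sharing reads were found as shared 150-base windows of GENCODE transcripts, since no protein table was at hand for the identity rule set at the start.

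Members, pathway lists and marker lists were chosen with earlier results of these data known. Named with values in each library were the 4 regulators, the 12 GTPases, Ifi27l2a and the 10 other type I style genes with the highest mean FPKM. From other lists at most 3 called genes in each direction were named by smallest p. The levels of Cxcl10, Cd74 and Slfn5 and the Esr1 check were chosen after values were seen. Counting members that fell, in place of those that rose, was added after seeing the data.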

Additional observations from a re-analysis of the deposited data

How the results depend on the processing

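Counts of members called lower after MI (22 type I style genes and 5 GTPases) changed with scaling and with the filter. They were 8 and 3 on log2(FPKM + 1) and on log2(FPKM + 0.1), 1 and 1 on log2(TPM + 1), where 5 and 4 were called higher, and 13 of 15 and 2 of 8 at a mean FPKM of at least 5, where only 23 members were tested and the median of CKO-MI minus fl/fl-MI was -0.28 for the type I style genes. With each library left out in turn type I style genes called lower ranged from 14 (fl/fl-Sham 2 or CKO-Sham 1 left out) to 26 (fl/fl-MI 1 left out), GTPases from 4 to 9 (again fl/fl-MI 1), with 0 to 1 GTPase called higher (Igtp without fl/fl-MI 2). A single library left in a group was assumed to vary like the other groups. The medians of CKO-MI minus fl/fl-MI ranged from -0.81 to -0.2 for the type I style genes and from -1.43 to -0.31 for the GTPases. Between the sham groups 0 members were called under every alternative listed in the methods.

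Of the members given by library, signs against 0 turned on log2(FPKM + 1) for Ifitm3 (0.01), Bst2 (0.02), Irgm1 (0.07), Iigp1 (0.16), Ifit3 (0.17) and Gbp2 (0.33), and on log2(FPKM + 0.1) at 0.01, 0.02, 0.07, 0.14, 0.17 and 0.35. Of the same members they turned on log2(TPM + 1) for Parp14 (0.04), Irf9 (0.12), Stat2 (0.13), Isg15 (0.15), Trim30a (0.28), Ifit2 (0.45), Ifi27l2a (0.51), Bst2 (0.58), Irgm1 (0.58), Ifitm3 (0.58), Iigp1 (0.68), Ifit3 (0.71) and Gbp2 (0.89), where the median of all genes stood at 0.92. Over all 40 tested members 8 turned on FPKM and 22 on TPM. With each library left out in turn Gbp6 ranged from -0.39 to 0.37, Irgm2 from -0.29 to 0.35, Igtp from -0.3 to 0.36 and Gbp2 from -0.45 to 0.01. The 18 members called lower with every library left out in turn were Irf7, Irf1, Irf9, Stat2, Ifi27l2a, Ifi44, Rsad2, Oas2, Mx2, Ddx58, Ifih1, Rtp4, Xaf1, Parp14, Gbp3, Gbp4, Gbp5 and Gbp7.

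With the replicate number as a block 21 type I style genes and 5 GTPases were called lower, with the call of Ifitm3 lost (adjusted p = 0.0577 in edgeR). Deviations of same-numbered libraries correlated between -0.143 and 0.063 over the pairs of groups. No strong deviation was shared by number, which does not show whether the libraries were paired. RLE, DESeq2 and counts divided by 4 kept both counts within 1.5 times.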
